A study of Macaca fascicularis with 9 samples.

Results

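The collagens, the laminins, the integrin subunits, fibronectin (FN1), the nidogens NID1 and NID2 and the perlecan gene HSPG2 were followed across cell types and treatments in single nuclei of monkey thalamus. Members were chosen by name alone, as every feature whose symbol has the form of a collagen chain, a laminin chain, an integrin alpha or beta subunit, or is FN1, NID1, NID2 or HSPG2. This gave 77 of the 29128 features: 35 collagens, 11 laminins, 24 integrin subunits, the 4 single genes and 3 further genes whose names match (ITGB1BP1 and ITGB1BP2, which encode proteins that bind an integrin tail, and ITGBL1, an integrin-like gene). At least 100 UMIs in the whole matrix were counted for 74 of them, and COL8A2, COL1A1 and ITGB1BP2 stayed below that number.

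Collagens form the fibres, networks and surface-bound filaments of the extracellular matrix, and collagen IV together with laminins, nidogens and perlecan builds the basement membrane that wraps brain vessels. Integrins are pairs of one alpha and one beta subunit that hold a cell to these proteins and pass signals inward. In the brain, most fibrous collagen belongs to the cells of vessel walls and meninges, while microglia carry the leukocyte integrins and glia carry their own sets of laminin and collagen chains.

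Nuclei from frozen thalamus of 9 female cynomolgus monkeys were counted in droplets, 3 animals in each of 3 groups, 2 weeks after the last dose. The saline group received 4 biweekly intravenous doses of saline. The ASO group received 1 intrathecal dose of 4 mg of an antisense oligonucleotide against the nuclear noncoding RNA MALAT1, and the OTV group received 4 biweekly intravenous doses of OTV:MALAT1, an oligonucleotide against the same RNA joined to a carrier that binds the transferrin receptor, at 30 mpk. The ASO group differs from both others in route and number of doses as well as in agent, and these cannot be told apart.

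The animals held 19981249 (Saline replicate 3) to 98850459 UMIs (ASO replicate 2) in 2956 to 11992 nuclei, with medians of 2579 (OTV replicate 3) to 7791 UMIs per nucleus. MALAT1 lay at 53767 to 63571 CPM (UMIs of the gene per 1000000 UMIs) in the saline animals, 41527 to 56006 in the ASO animals and 31228 to 38023 in the OTV animals. Animals are numbered within their group. In regional genes 3 libraries stood apart. A score of telencephalon genes minus diencephalon genes in astrocytes was above 0 in Saline replicates 1 and 3 (1.54 and 3.81) and ASO replicate 3 (3.61), and between -2.04 and -0.74 in the other 6 animals, so all OTV animals lay on one side. Of the nuclei, 1522 carried a barcode that also occurs in another library. The 6 oligodendrocyte markers summed to 5185 to 9045 CPM in the nuclei the authors named oligodendrocytes and to 343 to 738 CPM in astrocytes. The authors gave no endothelial class.

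The largest set of members had its highest level in the nuclei that the authors named unknown. These are cluster 15 (213 nuclei) and cluster 16 (118 nuclei) of the 17 clusters. Of the 74 members with 100 UMIs, 30 (40.5%) had their highest mean CPM in the unknown nuclei, against 18.9% of all 20739 features with as many UMIs. Astrocytes and neurons were highest for 11 members each, OPCs (oligodendrocyte precursor cells) for 9, myeloid nuclei for 7 and oligodendrocytes for 6. By cluster, cluster 15 was highest for 24 members (32.4%, against 11.0% of features), and cluster 16 for 9 (12.2%, against 14.7%). Clusters were made from all genes of these nuclei, so these are descriptions with no test. For 40 members the highest type exceeded the next by at least 2 times, and for all 40 the highest type was the same in the saline animals alone and by the share of nuclei with a UMI after thinning to 1000 UMIs.

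**Figure D1:**
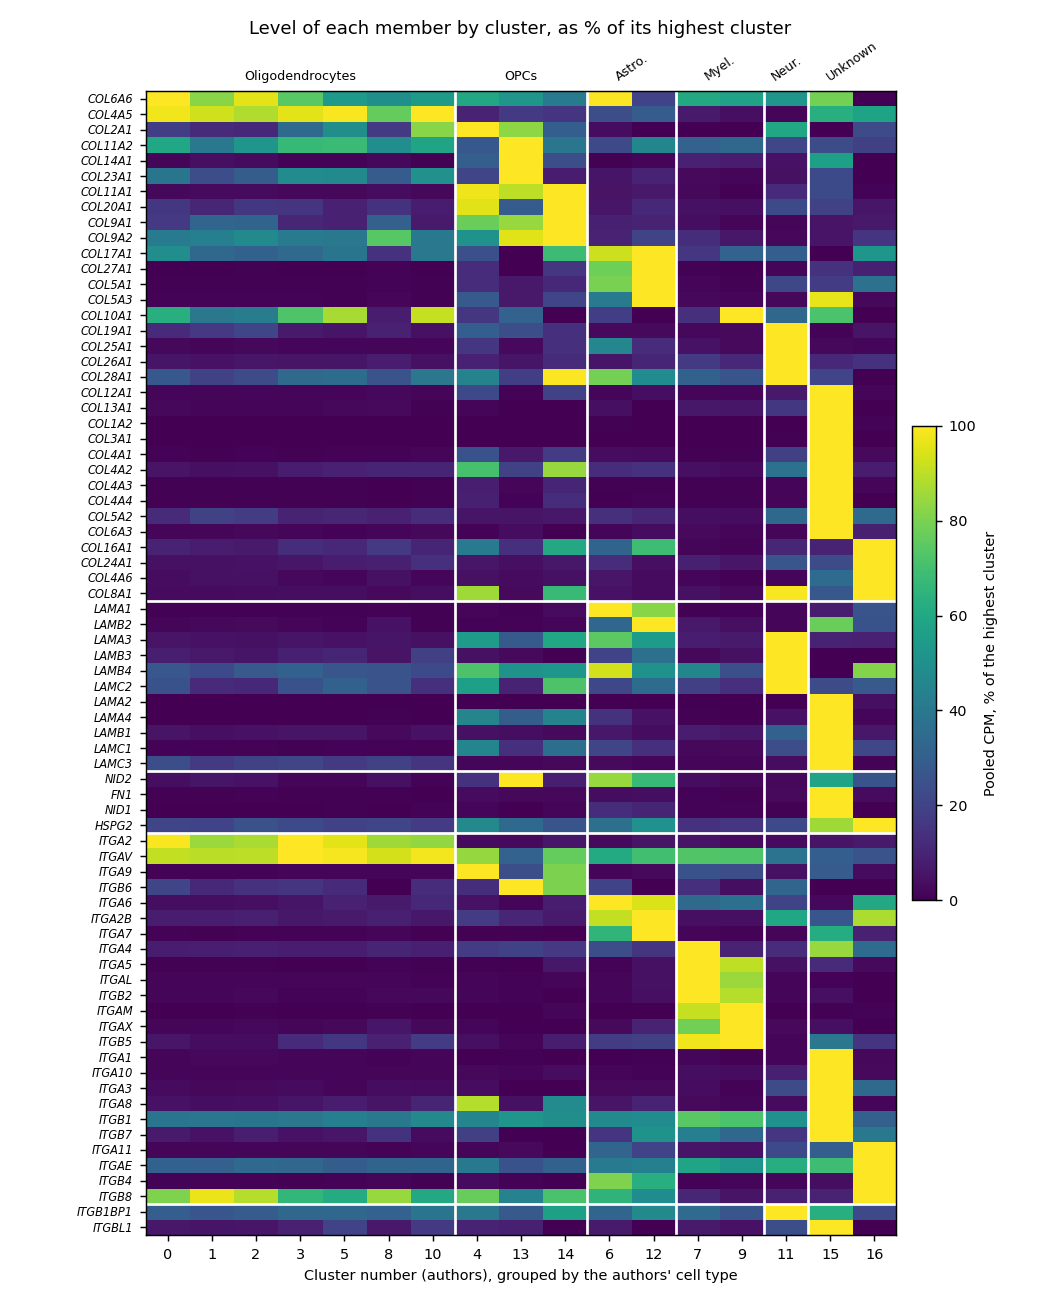
Level of the 74 members with at least 100 UMIs (rows) in the authors' 17 clusters (columns, grouped by cell type), as a percentage of the CPM in the member's highest cluster, pooled over the 9 animals. The column of cluster 15 is the brightest for 24 members, oligodendrocyte clusters are for 4, and ITGAM, ITGAL, ITGB2 and ITGAX peak in the myeloid clusters 7 and 9.

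The members made up 1.33% of all UMIs in cluster 15, against 0.509% in cluster 14 and 0.162% to 0.469% in the other clusters. LAMA2, the alpha chain of the laminin of muscle and vessel basement membranes, had 4838 CPM in cluster 15 and 199.9 CPM in cluster 16, the next highest. That one small cluster, 0.266% of the nuclei, held 67.7% of all LAMA2 UMIs. COL3A1, a fibre-forming collagen, had 142 CPM (exact Poisson 95% interval 119 to 168, counting error only) against 0.671 CPM in the neurons of cluster 11, and 63.6% of its UMIs lay in cluster 15. COL1A2, a chain of the main fibre-forming collagen, had 135 CPM there and at most 1.27 CPM elsewhere. COL1A1, its partner chain, had 12 of its 41 UMIs there.

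The other members that led cluster 15 over the next cluster by the largest ratios were FN1 (652 CPM against 23.3), the collagen and laminin receptor subunit ITGA1 (455 against 10.4), the collagen receptor subunit ITGA10 (102 against 9.08), COL6A3 (73.1 against 6.37) and the basement membrane collagen COL4A3 (797 against 84.0). Its neighbour COL4A4, whose annotated gene overlaps COL4A3 in the reference table, had 449.9 CPM against 59.3. NID1, which links laminin to collagen IV, had 744 CPM there and 96.8 in astrocyte cluster 6. The laminin chains LAMA4, LAMC1 and LAMC3 also had their highest values there (706, 281 and 306 CPM), but LAMA4 reached 322 CPM in OPC cluster 4 too. Of members led by oligodendrocytes, ITGA2 was low in the cluster (34.4 CPM against 632 in oligodendrocyte cluster 3) and COL4A5 was not (448 CPM against 708 in cluster 10).

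Cluster 15 carried some markers of 2 kinds of vessel-associated cells. Of the 7 pericyte and smooth muscle markers, PDGFRB (883 CPM), RGS5 (1025), ABCC9 (594), KCNJ8 (72.0) and CSPG4 (55.3) were highest there. The contractile genes ACTA2 (19.8) and MYH11 (5.22) were not, and reached 37.4 in cluster 7 and 28.0 in cluster 10. Of the 10 fibroblast and meningeal markers, CEMIP (2722), ABCA9 (476), DCN (421), COL3A1 (142), COL1A2 (135), SLC6A20 (119) and LUM (14.6) were highest there. The other 3 were higher elsewhere: FBLN1 had 165 CPM against 325 in cluster 16, ABCA8 108 against 816 in cluster 8, and PDGFRA 35.5 against 324 in cluster 14. Of the 6 endothelial markers, CDH5 was highest in cluster 15 (13.6 CPM against 3.76 in cluster 11). ERG was at 12.5, FLT1 and VWF at 5.22 each, PECAM1 at 3.13 and TEK at 2.09, all higher in another cluster. Its top genes by fold were SLC6A12, LAMA2, SLC38A11 and ITIH5, and the cluster is called by its number here. When each nucleus was placed by the larger of its pericyte and fibroblast marker counts, a division chosen after seeing the data and made without any member, 168 nuclei had more pericyte markers, 41 more fibroblast markers and 4 were tied. It used 6 genes of each list. CEMIP gave 57.9% of the UMIs of the fibroblast and meningeal list in the unknown nuclei. The fibroblast markers did not all go together: the unknown nuclei of OTV replicate 1 had 0 CPM of CEMIP but 450.3 of ABCA9 and 195 of DCN. In the cluster 21 nuclei lay within 2 UMIs of the boundary, and whether the division is a range or a pair of types was not tested.

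Some members divided along these markers. COL3A1 was found on both sides, with 110.4 CPM in nuclei with more pericyte markers and 249 in those with more fibroblast markers. Nuclei with more fibroblast markers had 558 CPM of COL1A2 against 10.9 in those with more pericyte markers, and the same side was higher for COL6A3 (313 against 2.73), ITGA8 (456 against 4.09), COL12A1 (641 against 64.1), COL11A1 (539 against 70.9), LAMB1 (401 against 61.3) and LAMA4 (1397 against 504). The pericyte side was higher for FN1 (816 against 111), COL4A3 (1005 against 111), COL4A4 (536 against 157), ITGA1 (533 against 194), COL14A1 (188 against 32.3) and ITGB5 (244 against 78.4). LAMA2 was high on both sides, at 4476 CPM on the pericyte side and 6187 on the fibroblast side. These values pool the nuclei of all animals. OTV replicate 1 gave 72 of the 168 nuclei on the pericyte side and 0 of the 41 on the other, so the sides also differ in their animals. The cluster was not tested between treatments because ASO replicate 2 had 8 nuclei of it and Saline replicate 3 had 7.

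**Figure D2:**
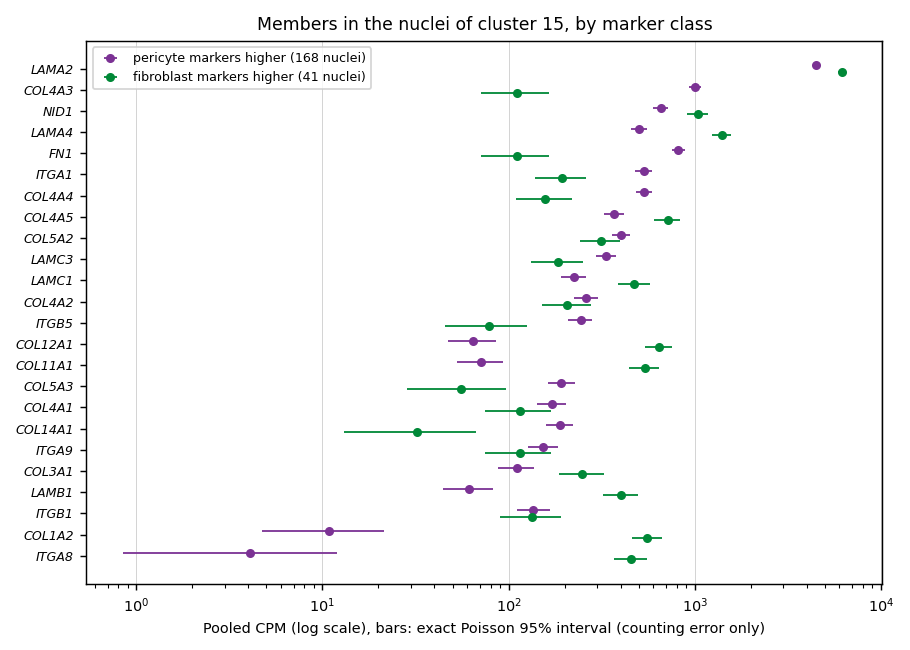
Pooled CPM (log axis, exact Poisson 95% intervals for counting error only) of the members with at least 100 UMIs in cluster 15, in its 168 nuclei with more pericyte markers and its 41 nuclei with more fibroblast markers. COL1A2 and ITGA8 lie near 10 CPM or below on the pericyte side and above 400 on the fibroblast side, while FN1, COL4A3 and ITGA1 lie the other way.

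By animal, LAMA2 in cluster 15 was 4784, 5467 and 6096 CPM in the saline animals, 3878, 4542 and 7555 in the ASO animals, and 4678, 4137 and 2735 in the OTV animals. COL1A2 was 250.4, 398 and 36.3 in saline, 69.6, 27.5 and 223 in ASO, and 0, 85.7 and 0 in OTV. For LAMA2 the OTV animals were all below the saline animals and the ASO animals overlapped both, and for COL1A2 all groups overlapped. No test was made within the cluster. The nuclei with more fibroblast markers numbered 7, 16 and 0 in the saline animals, 4, 1 and 4 in the ASO animals and 0, 4 and 5 in the OTV animals, while OTV replicate 1 gave 72 nuclei with more pericyte markers and none of the other kind. The part of this make-up in the COL1A2 values was not tested.

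Cluster 16 was ependymal-like: its leading genes were those of motile cilia, and the markers CFAP299 (3436 CPM), DNAH9 (3115), CFAP43 (2010) and SPAG17 (1058) were high. COL24A1, a minor fibre collagen, had 76.4 CPM there against 20.0 in cluster 11, COL4A6, a basement membrane collagen, had 113 against 39.7 in cluster 15, and the collagen receptor subunit ITGA11 had 28.0 against 9.10 in cluster 6. COL16A1, ITGB4, ITGAE, HSPG2 and ITGB8 exceeded the next cluster by less than 1.5 times. Of its 118 nuclei 75 came from ASO replicate 3 and 25 from Saline replicate 1, and the 3 OTV animals gave 2 together, so no group can be compared.

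OPCs were led by COL9A1, a collagen that decorates other collagen fibres, with a mean of 1194 CPM over animals against 348 in oligodendrocytes. COL11A1, a minor fibre collagen, had 775 CPM in OPCs against 141 in neurons, and ITGA9, a receptor for tenascin and other matrix proteins, had 459.6 against 135 in myeloid nuclei. Oligodendrocytes had 1 member that exceeded the next type by 2 times, the collagen receptor subunit ITGA2 (539 CPM against 39.9). COL4A5 and ITGAV were also highest there (667 and 284 CPM), with 397 CPM of COL4A5 in the unknown nuclei and 245 CPM of ITGAV in OPCs.

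Astrocytes led for LAMA1 (337 CPM against 41.6 in the unknown nuclei), ITGA6, which pairs into a laminin receptor (189 against 85.2 in neurons), COL5A1 (178 against 50.8), COL27A1 (139 against 24.2) and ITGB4 (63.7 against 20.6). Myeloid nuclei led for the leukocyte integrin subunits ITGAM (455 CPM against 4.21), ITGAL (98.6 against 1.80), ITGB2 (76.7 against 1.40) and ITGAX (28.9 against 0.769), and also for ITGB5 (516 against 166) and ITGA5 (47.4 against 5.30). For ITGAX in myeloid nuclei, OTV 2 had 119 CPM and the other animals 2.66 to 37.2. Neurons led for COL25A1, a collagen with a membrane-spanning stretch (192 CPM against 71.5 in astrocytes), COL19A1 (54.3 against 23.6 in OPCs), COL26A1 (28.7 against 8.91), LAMB3 (8.66 against 1.64) and ITGB1BP1 (58.8 against 22.2). The means of neurons and of the unknown nuclei each rest on the 7 animals with at least 20 such nuclei. In neurons of Saline 1, Saline 3 and ASO 3, the animals of positive region score, COL19A1 was 75.0, 131 and 122 CPM. It was 1.62 to 41.5 in the other animals counted. COL26A1 was 39.7, 87.7 and 45.6 in the same 3 animals and 0 to 14.4 in the others counted. COL25A1, LAMB3 and ITGB1BP1 overlapped between these sets of animals. The part of region in the neuron values was not tested. Without 1 animal, 8 of the 40 members whose highest type was at least 2 times the next fell under that ratio. COL25A1 in neurons rested on OTV 2, which had 586 CPM where the other 6 animals had 45.6 to 287, and without it the mean was 126 (1.65 times astrocytes). COL19A1 in neurons fell to 1.84 times OPCs without Saline 3 and 1.96 without ASO 3, and ITGA6 and ITGB4 in astrocytes to 1.93 and 1.88 times the next type without OTV 2. ITGA6 in neurons was 175, 125 and 250.3 CPM in Saline 2, ASO 1 and OTV 1 and 11.2 to 58.4 in the other 6 animals. In neurons of the same 3 animals the 6 endothelial markers summed to 667, 1391 and 1328 CPM, against 11.2 to 281 in the others, and their part in the ITGA6 value was not tested.

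Treatment was compared in sums over all nuclei and over the 4 types with at least 20 nuclei in every animal: oligodendrocytes, OPCs, myeloid nuclei and astrocytes. Each fit used edgeR's quasi-likelihood test, p-values were adjusted by the Benjamini-Hochberg method across every gene fitted, and a member was called at an adjusted p under 0.05. Fold changes are log2 with their standard error (SE). In a sum over nuclei, fewer cells of a kind and less RNA per cell cannot be told apart.

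With the ASO against saline, 1 member was called in any cell type. COL9A1 fell in oligodendrocytes, from 399, 646 and 694 CPM in the saline animals to 168, 134 and 182 in the ASO animals, and the groups did not overlap. The log2 change was -1.89 (SE 0.28, n = 3 animals a group, adjusted p = 0.0354 in edgeR's quasi-likelihood test). It was the 1 call among 74 members tested in oligodendrocytes, where 0.394% of all genes were called in either direction. Each of oligodendrocyte clusters 0 to 3 had all 3 ASO animals below all 3 saline animals for COL9A1, as did cluster 5. In cluster 1 the saline animals had 617, 927 and 741 CPM and the ASO animals 259, 234 and 219. The call was lost with a term for the region score (-1.87, adjusted p = 0.0528), with the animals of negative score alone (-2.10, adjusted p = 0.203). It was also lost without Saline 2 or 3, any ASO animal or OTV 2, with log2 changes of -1.97 to -1.73 and adjusted p of 0.0645 to 0.150.

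OPCs, which hold the highest level of the gene, gave no such call. COL9A1 in OPCs had 929, 1221 and 1427 CPM in saline and 1001, 965 and 955 in the ASO group, a log2 difference of -0.34 (SE 0.15, adjusted p = 0.496). The difference between cell types was itself called (adjusted p = 0.00861, edgeR's quasi-likelihood test of the interaction, which called 0.957% of all genes), and that call was lost without ASO 1 or 2 (adjusted p of 0.0804 to 0.0897). In oligodendrocytes of the OTV animals COL9A1 stood at 415, 280.2 and 211 CPM, which overlapped saline (log2 difference -0.88, SE 0.28, adjusted p = 0.0537).

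No member was called with the ASO in all nuclei (74 tested, 0.0320% of all genes called), OPCs (57, 0.262%), myeloid nuclei (40, 0.197%) or astrocytes (50, 0.0147%). At an unadjusted p under 0.05 the counts were 6, 9, 9 and 4 members, or 8.11%, 15.8%, 22.5% and 8%, where 9.51%, 9.61%, 10.3% and 6.1% of all genes passed. DESeq2's Wald test called 2, 3, 2 and 0 (2.70%, 5.26%, 5.88% and 0%), against 1.68%, 1.44%, 1.67% and 0.515% of all genes with an adjusted p. In oligodendrocytes it called 4 members (5.48%, against 3.45% of all genes). ITGA2 in oligodendrocytes was not called either, though its groups did not overlap: it had 446, 527 and 371 CPM in saline and 737, 649.7 and 701 in the ASO group (log2 difference 0.60, SE 0.12, adjusted p = 0.0818 with edgeR).

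With OTV against saline some members were called higher and others lower, and none was called in both directions. The lower calls were led by COL19A1, COL6A6 and LAMB1 and the higher ones by COL9A2, LAMB2 and LAMA4. Oligodendrocytes had 6 members that rose and 4 that fell of 74, where 19.2% of all genes were called (7.52% higher and 11.7% lower). Cluster 8 held 10.7% of oligodendrocytes in OTV and 2.90% in saline, but 1657 of its 1679 OTV nuclei came from OTV 1, and OTV 2 and 3 gave 21 and 1. For OPCs the counts were 5 and 6 of 57 (22.1%, of which 10.2% higher and 11.9% lower). For myeloid nuclei they were 3 and 0 of 40 (12%, of which 4.76% higher and 7.26% lower). For astrocytes they were 6 and 0 of 50 (15.4%, of which 6.27% higher and 9.12% lower), and for all nuclei 3 and 2 of 74 (15.7%, of which 5.72% higher and 9.94% lower). The members' shares of 13.5%, 19.3%, 7.50%, 12% and 6.76% in the same order were all below those of all genes. With both directions together the counts thus set nothing apart in these genes. In myeloid nuclei and astrocytes every call was higher, so the higher calls alone were 7.50% and 12% of members, against 4.76% and 6.27% of all genes. No member was called lower there, against 7.26% and 9.12% of all genes. The other fits had calls both ways, and these shares were not tested. The median log2 change of the members was 0.12 in oligodendrocytes and -0.09 in astrocytes, where that of all genes was -0.02 in both. DESeq2's Wald test called 8 members in all nuclei, or 10.8%, against 24.4% of all genes. In all nuclei the count of 5 became 3 without Saline 1 and 2 without OTV 3. In oligodendrocytes the 10 became 6 without Saline 1, 5 without Saline 2 and 6 without OTV 3. In myeloid nuclei the 3 became 1 without Saline 2 or OTV 2 and 5 without Saline 3, and in astrocytes the 6 became 2 without OTV 3. The shares of all genes called in these fits with 1 animal left out are not given here, so these counts have no background.

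COL19A1, a collagen found along basement membranes, fell most. In oligodendrocytes the saline animals had 13.3, 29.9 and 18.6 CPM, the ASO animals 12.5, 7.68 and 14.7, and the OTV animals 1.73, 2.26 and 0.806. Every OTV animal lay below every other animal. The log2 change from saline was -3.63 (SE 0.44, adjusted p = 0.000965, edgeR). In OPCs COL19A1 stood at 28.3, 37.3 and 31.3 CPM in saline, 36.5, 30.1 and 36.0 in ASO and 3.94, 7.99 and 0.534 in OTV, and the groups again did not overlap. The change there was -2.87 (SE 0.40, adjusted p = 0.000767). The 3 markers of inhibitory neurons summed in oligodendrocytes to 36.0, 37.9 and 60.3 CPM in saline, 49.5, 33.3 and 55.5 in ASO and 13.8, 13.8 and 13.2 in OTV. In OPCs the sums were 163 to 196 CPM in saline, 188 to 216 in ASO and 108 to 155 in OTV, so in both types every OTV animal lay below every other. One gene carries these sums: GAD1 gave 88.3% of their UMIs in oligodendrocytes and 97.3% in OPCs, where neurons hold more GAD2 than GAD1. GAD2 overlapped between the groups in oligodendrocytes, with 4.55, 1.64 and 21.9 CPM in saline and 3.32, 2.75 and 4.03 in OTV. The 6 general neuron markers overlapped between saline and OTV in oligodendrocytes (230.4 to 769.8 and 199 to 256 CPM), and in OPCs they were 2383 to 2727 and 1837 to 2115. Neurons lead COL19A1, and the part of their RNA in these values was not tested.

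Astrocytes gave no call for COL19A1. They had 1.17, 2.90 and 3.29 CPM in saline and 2.74, 5.32 and 1.16 in OTV (log2 difference 0.15, SE 0.60), and the difference between types was called (adjusted p = 0.0103, edgeR interaction, which called 3.53% of all genes) but lost without OTV 1 or 2 (adjusted p of 0.0628 to 0.120). Neurons, with too few nuclei for a test, had 75.0, 41.5 and 131 CPM of it in saline, 20.9, 89.7 and 122 in ASO and 4.15, 5.88 and 1.62 in OTV. Each OTV value lay below each of the others, on 3, 9 and 1 UMIs. The fall in oligodendrocytes and OPCs kept its call in each alternative setting and without each animal. COL9A1, the neighbouring gene in the reference table, was not called in OPCs with OTV against saline, where OTV animals had 1557, 1458 and 1233 CPM. With OTV against ASO it was called higher in OPCs, where the ASO animals had 1001, 965 and 955 CPM.

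**Figure D3:**
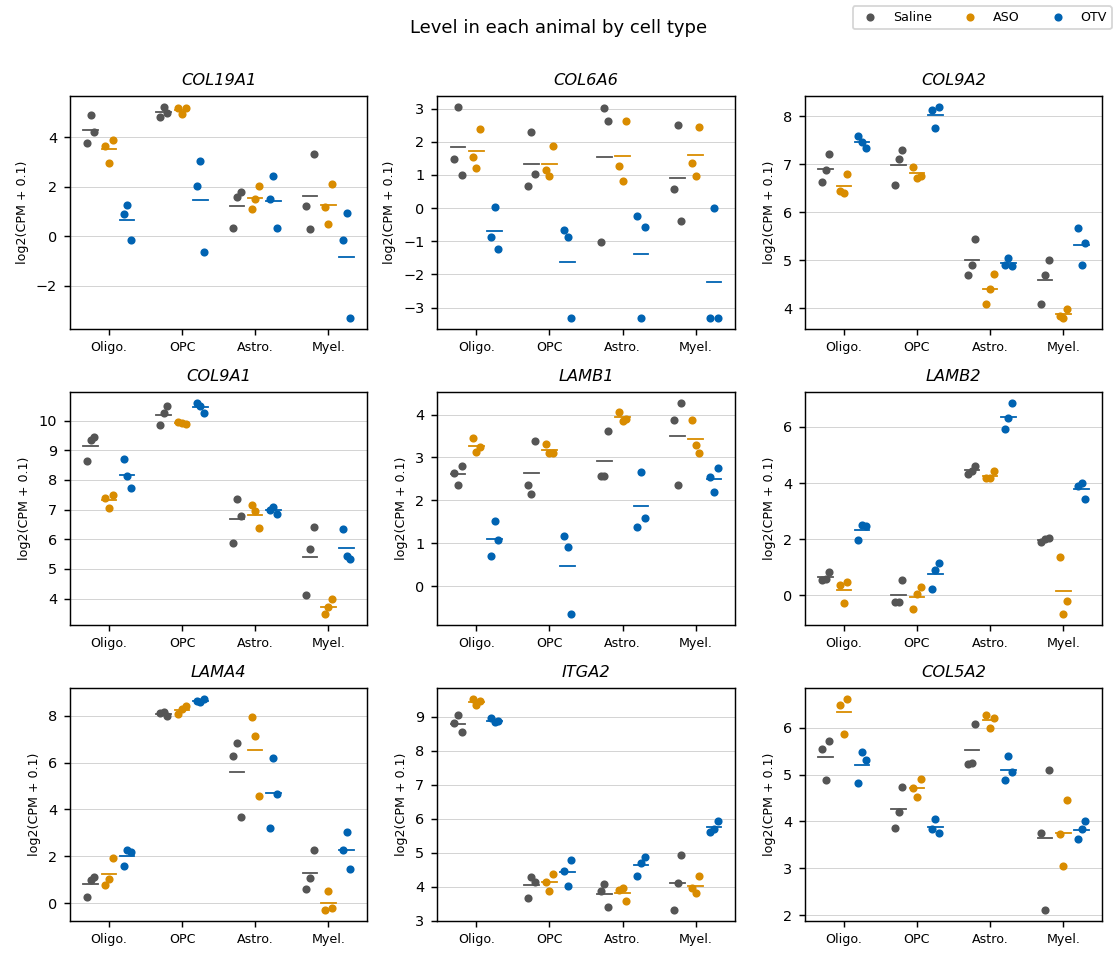
log2(CPM + 0.1) of 9 members in each animal (points) with the group mean (bars), in oligodendrocytes, OPCs, astrocytes and myeloid nuclei, for saline, ASO and OTV. COL19A1 in oligodendrocytes and OPCs shows the OTV animals below all others, and LAMB2 in oligodendrocytes, astrocytes and myeloid nuclei shows them above all others.

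COL6A6, a chain of a microfibril-forming collagen, fell in the same pair of types. Oligodendrocytes had 2.70, 8.21 and 1.88 CPM in saline, 2.82, 2.19 and 5.15 in ASO and 0.448, 0.915 and 0.323 in OTV, and the OTV animals lay below all others. The log2 change from saline was -2.98 (SE 0.64, adjusted p = 0.0117) in oligodendrocytes and -2.70 (SE 0.75, adjusted p = 0.0245) in OPCs. The OPC call rests on 10, 44 and 7 UMIs in saline against 3, 1 and 0 in OTV, and was lost without Saline 2 or any OTV animal (-3.40 to -1.98, adjusted p of 0.0581 to 0.105). COL10A1, which overlaps another gene in the reference table, fell in oligodendrocytes (-2.64, SE 0.67, adjusted p = 0.0241), on 7, 5 and 0 UMIs in OTV. It lost the call without Saline 2 or OTV 1 (-2.65 to -2.20, adjusted p up to 0.105) and with the 6 compared animals (-2.65, adjusted p = 0.0529). It is uncertain, since reads of overlapping genes may be shared. The same limit holds for other members whose annotated genes overlap another, among them COL19A1, LAMB1, ITGB2 and ITGB8.

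Other collagens rose. COL9A2, the partner chain of COL9A1, had 95, 137 and 156 CPM in OPCs of saline animals, 123, 105 and 108 in ASO and 279.5, 216 and 293 in OTV, with no overlap between OTV and the others. Its log2 change from saline was 1.07 (SE 0.17, adjusted p = 0.00156). In oligodendrocytes it had 98.7, 117 and 148 CPM in saline and 192, 176 and 161 in OTV (0.59, SE 0.16, adjusted p = 0.0314), a call lost with the 6 compared animals alone (0.57, adjusted p = 0.0583) and with the animals of negative region score (0.66, adjusted p = 0.0790). It was lost too without Saline 1 or 2 or OTV 1 or 2 (0.47 to 0.60, adjusted p up to 0.108). In astrocytes COL9A2 differed by -0.06, and the difference between types was called (adjusted p = 0.00971) but lost without Saline 1 or OTV 3 (adjusted p of 0.0787 to 0.0795).

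**Figure D4:**
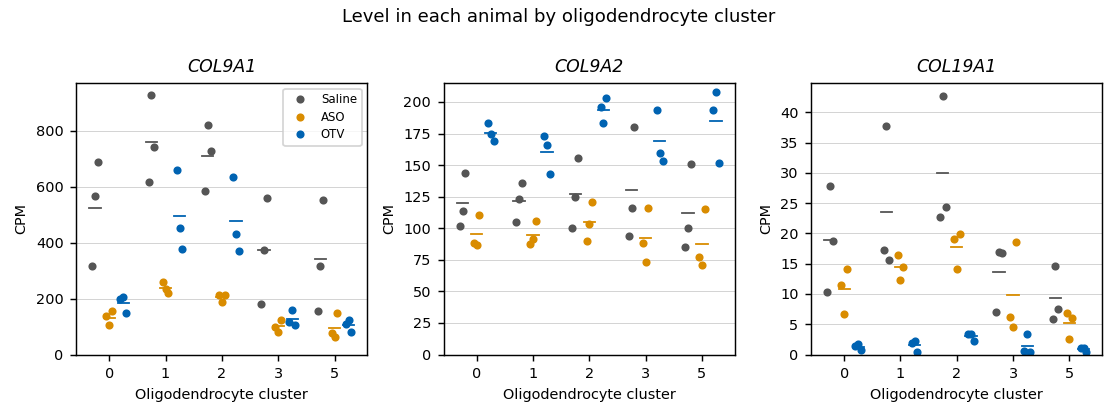
CPM of COL9A1, COL9A2 and COL19A1 in each animal (points; bars are group means) in oligodendrocyte clusters 0, 1, 2, 3 and 5. In cluster 1 the ASO animals have 219 to 259 CPM of COL9A1 and the saline animals 617 to 927, and in every cluster shown the OTV animals have the lowest COL19A1 mean.

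Further collagen calls lay mostly in 1 type each. In OPCs COL20A1 rose from 17.3, 13.8 and 7.70 CPM to 24.5, 29.3 and 37.4 (1.23, SE 0.28, adjusted p = 0.00917), without overlap. COL16A1 also rose there (1.03, adjusted p = 0.0320), a call lost without any one of 5 animals (Saline 1 and 2, ASO 1, OTV 1 and 3; 0.76 to 1.12, adjusted p up to 0.116). COL5A3 fell from 64.5, 48.6 and 75.9 CPM to 31.9, 30.6 and 31.5 (-0.95, SE 0.21, adjusted p = 0.00819). The ASO animals had 27.0, 34.2 and 43.1 CPM of COL5A3, also below saline but not called. COL11A2 rose in OPCs (1.43, adjusted p = 0.0141, and 1.19 with 0.0553 without OTV 3) and in astrocytes, where saline animals had 40.2, 45.3 and 47.8 CPM and OTV animals 76.3, 86.1 and 89.3 (0.95, SE 0.19, adjusted p = 0.00968).

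Astrocytes of OTV animals also had more COL27A1, a fibre collagen that they lead, with 199, 218 and 245 CPM against 66.7, 131 and 81.3 in saline (1.28, SE 0.28, adjusted p = 0.0143). Cluster 12 held 23.5% of astrocytes in OTV against 5.88% in saline and 5.23% in ASO, but unevenly by animal. It had 114, 5 and 264 of the 488, 180 and 961 astrocytes of OTV 1, 2 and 3, and 44 of the 284 of Saline 3. In cluster 6 alone the COL27A1 change was 1.29 (adjusted p = 0.0153, edgeR). COL12A1 rose there too, on few UMIs (22, 12 and 32 in OTV and 7, 19 and 2 in saline; 2.05, SE 0.43, adjusted p = 0.0126). Without OTV 3 neither call held, nor that of COL27A1 without Saline 1 or of COL12A1 without Saline 2 (1.09 to 1.20 for COL27A1 and 1.95 to 2.06 for COL12A1, adjusted p of 0.0501 to 0.0593). With the animals of negative region score alone, the astrocyte calls of COL11A2 (0.95, adjusted p = 0.109), COL12A1 (2.05, 0.0966), COL27A1 (0.81, 0.123) and the laminin receptor subunit ITGA7 (1.00, 0.164) were lost, and so were the OPC calls of COL11A2 and COL5A3. That fit holds 1 saline animal, which is assumed to vary like the other groups.

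Of the 4 laminin beta chains, LAMB2 rose and LAMB1 fell with OTV against saline in the types given here, and LAMB3 and LAMB4 had no call. LAMB2, the beta chain of vessel and synapse laminins, stood in astrocytes at 19.9, 21.7 and 24.2 CPM in saline, 17.8, 18.1 and 21.4 in ASO and 61.1, 79.0 and 116 in OTV. Every OTV animal lay above every other. The log2 change from saline was 2.01 (SE 0.25, adjusted p = 0.00137), and it kept its call in each alternative and without each animal. It rose also in oligodendrocytes, from 1.37, 1.39 and 1.67 CPM to 3.83, 5.61 and 5.38 (1.82, SE 0.29, adjusted p = 0.00304), and in myeloid nuclei, from 3.64, 3.93 and 3.98 to 14.9, 16.1 and 10.6 (1.82, SE 0.44, adjusted p = 0.0242).

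LAMB2 was called higher in 3 types with OTV against saline, and the share of all genes called in as many types is not given here. Astrocytes hold more of it than either other type, so RNA of other cells was set beside the result. The summed CPM of 6 astrocyte markers was 123 to 235 in oligodendrocytes of saline animals and 141 to 236 in those of OTV animals, and in myeloid nuclei it was 1892 to 2548 in saline and 683 to 1616 in OTV. Most of the myeloid sum is SLC1A3, which the myeloid clusters hold at 1504 and 1306 CPM, while GFAP, AQP4 and GJA1 were at 10.9, 12.3 and 7.12 CPM in cluster 7. SLC1A3 also gave 72.3% of the summed UMIs in oligodendrocytes. SLC1A2, the leading marker in astrocytes, had 9.79, 17.7 and 129 CPM in myeloid nuclei of saline animals and 40.9, 51.0 and 114 in OTV. In oligodendrocytes it had 6.23, 9.47 and 67.3 CPM in saline and 22.0, 24.0 and 70.1 in OTV, so the groups overlapped in both types. LAMB2 also rose in astrocytes, so these sums do not show how much astrocyte LAMB2 reached other nuclei, and its part was not tested. With the animals of negative region score the oligodendrocyte value was 1.88 (adjusted p = 0.0659) and the myeloid value 1.82 (adjusted p = 0.140). The myeloid call was lost as well without Saline 1 or 2 or OTV 1 or 2 (1.75 to 1.82, adjusted p of 0.0719 to 0.0862).

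LAMB1, the beta chain more widely found in early basement membranes, fell in oligodendrocytes from 6.16, 5.06 and 6.88 CPM in saline to 1.53, 2.75 and 1.99 in OTV, while the ASO animals had 10.9, 8.59 and 9.42. The 3 groups did not overlap. LAMB1 overlaps DLD in the reference table, so its values share the limit given for COL10A1. The change from saline was -1.49 (SE 0.26, adjusted p = 0.00410) and that from ASO -2.14 (SE 0.25, adjusted p = 0.000547). In OPCs it was -1.86 from saline (SE 0.47, adjusted p = 0.0165). The changes from saline lost their call with the animals of negative region score (-1.24, adjusted p = 0.108, and -1.30, adjusted p = 0.171), the first also in cluster 2 alone (-1.20, adjusted p = 0.0683) and the second with the region term (-1.50, adjusted p = 0.0654).

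LAMA4, the alpha chain of endothelial and pericyte laminins, rose in OPCs from 278, 283 and 254 CPM to 399, 379 and 423, and all OTV animals lay above all others. The change was 0.60 (SE 0.11, adjusted p = 0.00289). In oligodendrocytes it rose from 1.11, 1.90 and 2.09 CPM to 2.91, 4.70 and 4.41 (1.33, SE 0.39, adjusted p = 0.0415), a call lost without any saline animal, ASO 2, OTV 2 or OTV 3 (1.07 to 1.48, adjusted p of 0.0518 to 0.149). LAMA2, the marker chain of cluster 15, rose in oligodendrocytes from 2.32, 3.29 and 2.29 CPM to 5.42, 4.51 and 5.00 (0.95, SE 0.24, adjusted p = 0.0228). Beside it, the 7 pericyte and smooth muscle markers summed to 56.7 to 81.5 CPM in oligodendrocytes of saline animals and 44.0 to 71.9 in those of OTV animals. MYH11 gave 44.6% of their UMIs there, and it was at 16.6 to 28.0 CPM in oligodendrocyte clusters and 5.22 in cluster 15. PDGFRB, at 883 CPM in cluster 15, was at 0.396 to 1.39 in oligodendrocyte clusters and hardly enters the sum. The 10 fibroblast and meningeal markers summed to 617, 845 and 656 CPM in saline and 896, 814 and 878 in OTV, but 98.9% of their UMIs there were of ABCA8, which is higher in oligodendrocyte clusters than in cluster 15. CEMIP, the leading fibroblast marker of cluster 15, had 4.55, 2.19 and 7.30 CPM in saline and 1.10, 1.83 and 1.45 in OTV, and DCN was under 0.5 CPM in each. The part of RNA from such cells was not tested. The LAMA2 call was lost with the region term (0.92, adjusted p = 0.0679), in cluster 2 alone (1.09, adjusted p = 0.106) and with the animals of negative region score (0.66, adjusted p = 0.307), and without Saline 1, OTV 1 or OTV 3 (0.84 to 0.96, adjusted p up to 0.0944).

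Of the integrin subunits, 24 were tested in oligodendrocytes and 1 was called with OTV against saline (4.17%, against 19.2% of all genes). It was ITGA6 (0.94, SE 0.25, adjusted p = 0.0298, edgeR). The call was lost with the region term (0.90, adjusted p = 0.101) and without Saline 1 or 2 or OTV 1 or 3 (0.75 to 0.92, adjusted p of 0.0771 to 0.112). ITGB8, which pairs with ITGAV to activate TGF-beta, fell in OPCs from 184, 182 and 202 CPM to 156, 134 and 116 (-0.43, SE 0.13, adjusted p = 0.0368). With the region term it was -0.31 (adjusted p = 0.168), and the call was lost without Saline 1 or 3 or OTV 2 or 3 (-0.46 to -0.34, adjusted p up to 0.111). ITGBL1 fell in OPCs on 1, 1 and 3 UMIs in OTV (-2.54, SE 0.66, adjusted p = 0.0189), and not without Saline 1 or 2 or OTV 1 or 2 (-2.50 to -1.75, adjusted p of 0.0501 to 0.0953). In astrocytes ITGA7 rose from 69.1, 73.1 and 86.8 CPM to 173, 113 and 129.8 (0.91, SE 0.25, adjusted p = 0.0379), a call lost without Saline 1 or 2, ASO 2, OTV 1 or OTV 3 (0.68 to 0.98, adjusted p of 0.0532 to 0.125).

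The leukocyte integrins that define myeloid nuclei were not called there with OTV against saline. ITGAM had 497, 414 and 509 CPM in saline and 348, 528 and 459 in OTV (log2 difference -0.15, SE 0.16). ITGAX, which microglia raise on activation, had 8.39, 10.4 and 2.66 CPM in saline, 23.1, 37.2 and 20.7 in ASO and 13.4, 119 and 25.2 in OTV. The saline animals were below all others, and the difference of OTV from saline was 2.67 (SE 0.84, adjusted p = 0.0810). In all nuclei ITGAX was called (2.14, SE 0.59, adjusted p = 0.0404), with OTV replicate 2 at 6.66 CPM and the other 8 animals at 0.551 to 1.97. That call was lost without any animal but OTV 1 (1.15 to 2.39, adjusted p of 0.0554 to 0.106).

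The myeloid calls, apart from LAMB2, were of members that oligodendrocytes lead. COL4A5 rose in myeloid nuclei from 17.9, 24.7 and 44.5 CPM to 73.7, 100.2 and 101 (1.63, SE 0.33, adjusted p = 0.0128), and ITGA2 from 9.79, 17.1 and 30.5 to 48.2, 51.9 and 61.0 (1.48, SE 0.34, adjusted p = 0.0207). In oligodendrocytes the levels were 512 to 726 CPM of COL4A5 and 455 to 495 of ITGA2 in OTV animals. The 6 oligodendrocyte markers summed, in the same myeloid nuclei, to 722 to 875 CPM in saline, 919.8 to 1508 in ASO and 1029 to 1663 in OTV, so they were higher in OTV than in saline too. Their part in the 2 calls was not tested. The COL4A5 call was lost without Saline 2 (1.53, adjusted p = 0.0559) and the ITGA2 call without Saline 1 or 2 or OTV 2 or 3 (1.15 to 1.54, adjusted p of 0.0525 to 0.0772). ITGA2 rose in astrocytes as well (0.85, SE 0.24, adjusted p = 0.0419), where the same markers summed to 343 to 412 CPM in saline and 465 to 738 in OTV. That call was lost with the region term (0.64, adjusted p = 0.147) and without any animal but ASO 3 and OTV 1 (0.71 to 1.03, adjusted p of 0.0539 to 0.142).

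**Figure D5:**
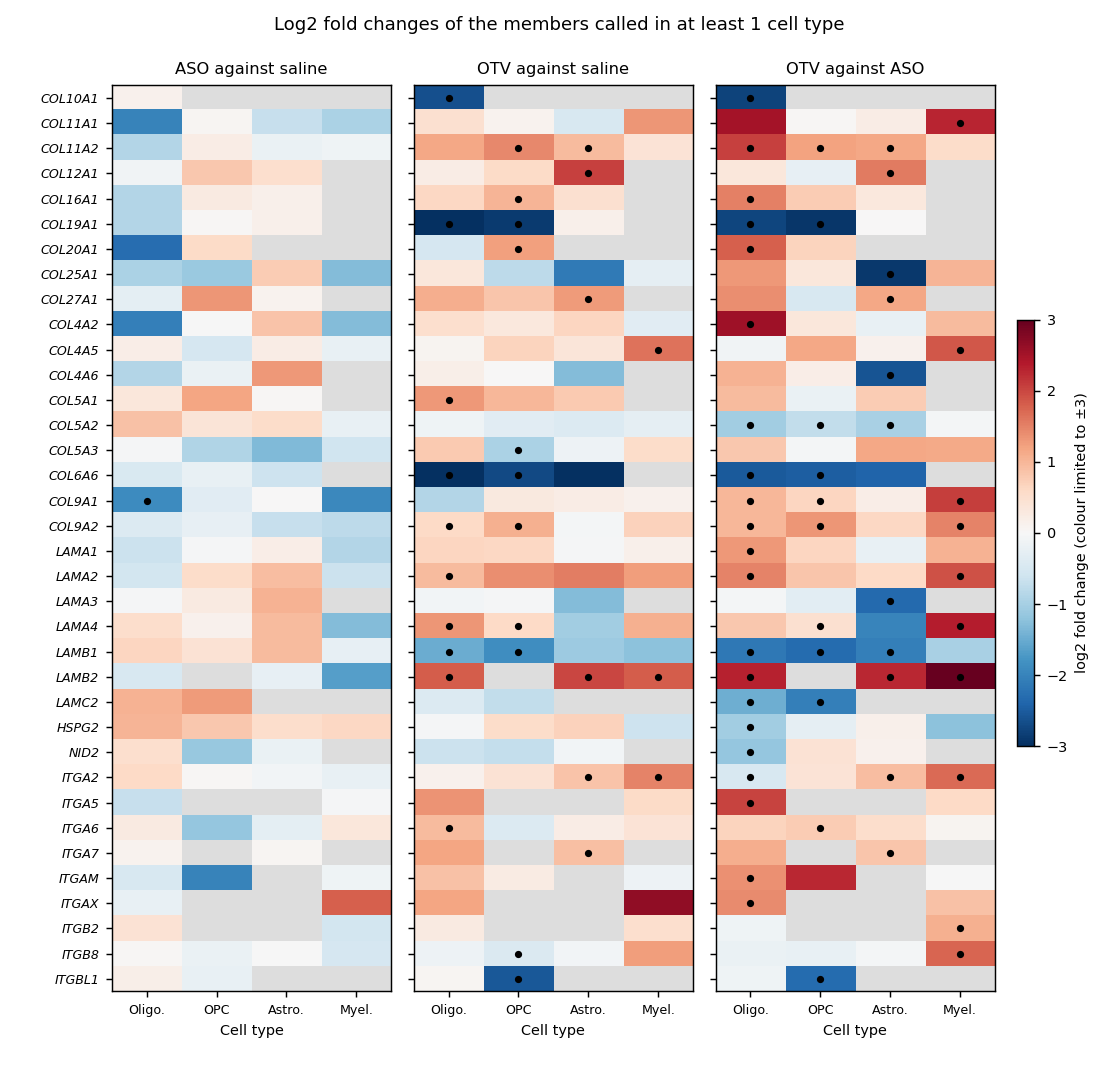
Log2 fold changes (colour, limited to ±3) of the members called in at least 1 cell type and contrast, in oligodendrocytes, OPCs, astrocytes and myeloid nuclei. Dots mark calls at an adjusted p under 0.05 and grey marks members below the expression filter. The panel of ASO against saline has 1 dot, COL9A1 in oligodendrocytes.

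OTV was also set against ASO, a comparison that shares its animals with those above. The 2 groups differ in route and number of doses as well as in agent, and these cannot be told apart. ASO replicate 3 had a region score above 0 and all OTV animals a score under 0. The calls are given for each type with the share of all genes. Oligodendrocytes had 12 members that rose and 9 that fell of 74 (26.3% of all genes called, 11.2% higher and 15.1% lower). OPCs had 5 and 6 of 57 (27.2%, 12.7% higher and 14.4% lower), and astrocytes 6 and 5 of 50 (22.0%, 9.51% higher and 12.5% lower). All nuclei had 6 and 3 of 74 (17.9%, 6.83% higher and 11.1% lower). The members' shares were 28.4%, 19.3%, 22.0% and 12.2% in that order, near or below those of all genes. DESeq2's Wald test called 20 members in all nuclei (27.0%, against 26.1% of all genes). Myeloid nuclei had 10 that rose and 0 that fell of 40, a share of 25% (20.5% of all genes, 9.42% higher and 11.1% lower). Those 10 include COL4A5, ITGA2, COL9A1, COL9A2 and COL11A1, which oligodendrocytes or OPCs lead. The 6 OPC markers summed to 59.7 to 119 CPM in myeloid nuclei of ASO animals and 177 to 263 in those of OTV animals, and their part was not tested. Different clusters held most of the myeloid class in the 2 groups. Cluster 7 had 727 nuclei of ASO animals and 1350 of OTV animals (39.6% and 71.8% of the class), and cluster 9 had 1109 and 529. Of those 10 calls 7 were kept in a fit of cluster 7 alone, for which the share of all genes called is not given here. Leaving out 1 animal moved the count in all nuclei from 9 to 4 without Saline 1, ASO 1, ASO 2 or OTV 1, to 5 without OTV 2 and to 14 without Saline 3. The count became 13 for oligodendrocytes without ASO 1, 6 for OPCs without ASO 1 or OTV 2 and 7 without OTV 1, 6 for myeloid nuclei without ASO 1, ASO 2 or OTV 2, and 5 for astrocytes without ASO 1, 7 without OTV 1 and 4 without OTV 3. These counts with 1 animal left out have no background either, since the shares of all genes called in those fits are not given.

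COL5A2, a regulator of fibre width, was lower in OTV than ASO in oligodendrocytes, with 28.2, 44.8 and 39.7 CPM against 89.6, 58.1 and 98, while the saline values of 46.7, 29.4 and 52.5 overlapped those of OTV (log2 change -1.04, SE 0.26, adjusted p = 0.0185). It was also lower in astrocytes (-0.97, SE 0.24, adjusted p = 0.0194). The first call was lost without ASO 1 or 3 or OTV 1 or 3 (-1.06 to -0.88, adjusted p of 0.0534 to 0.0598) and the second without ASO 1, OTV 1 or OTV 3 (-0.94 to -0.88, adjusted p up to 0.0728). LAMA3 was lower in OTV astrocytes, at 11.2, 16 and 5.20 CPM against 58.9, 39.0 and 65.8 in ASO and 22.2, 12 and 45.0 in saline (-2.33, SE 0.53, adjusted p = 0.0148), and without OTV 3 the value was -1.94 (adjusted p = 0.0607). COL25A1 stood in astrocytes at 7.98, 31.1 and 13.3 CPM in OTV and 69.8, 45.0 and 263 in ASO (-2.90, SE 0.78, adjusted p = 0.0349), and ASO replicate 3, an animal of positive region score, had the highest value. Saline animals had 62.8, 44.9 and 105, also all above OTV. Neurons lead COL25A1, and in astrocytes the 6 neuron markers summed to 459, 406 and 1065 CPM in ASO and 287, 292 and 306 in OTV, of which MAP2 gave 82.6% of UMIs over all animals. The 3 inhibitory neuron markers summed to 93.5, 59.8 and 146 in ASO, 78.4, 84.9 and 90.6 in saline and 24.4, 14.2 and 18.8 in OTV, and GAD1 gave 93.8% of their UMIs. SYT1, the leading marker in neurons, went the other way in astrocytes, with 16.7, 13.2 and 25.6 CPM in ASO and 39.4, 86.9 and 34.7 in OTV. The part of neuron RNA in the COL25A1 values was not tested. The COL25A1 call was lost without the filter (-2.91, adjusted p = 0.0896) and with the 6 compared animals alone (-2.89, adjusted p = 0.0606), and without Saline 1, ASO 1, ASO 3, OTV 1 or OTV 3 (-3.20 to -1.81, adjusted p up to 0.115). The test of a difference between cell types called 10.4% of all genes in this comparison.

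In myeloid nuclei ITGB2, the shared beta chain of the leukocyte integrins, was 97.2, 94.9 and 130.1 CPM in OTV and 46.5, 56.0 and 49.5 in ASO, without overlap (1.06, SE 0.23, adjusted p = 0.0104). Saline animals had 97.7, 60.9 and 57.8, which overlapped the OTV animals and lay above all the ASO animals. Its alpha partners ITGAM and ITGAL were not called (-0.02 and 0.38). COL16A1 in oligodendrocytes was 17.1, 14.6 and 19.8 CPM in OTV and 5.91, 5.77 and 7.58 in ASO (1.51, SE 0.26, adjusted p = 0.00307). In oligodendrocyte cluster 3 the saline animals had 10.2, 19.0 and 30.0 CPM of COL16A1, which overlapped OTV (23.5, 22.6 and 23.2). ITGA5 was also higher in OTV than in ASO oligodendrocytes (2.03, adjusted p = 0.00591, edgeR), on 28, 6 and 8 UMIs in OTV and 7, 12 and 4 in ASO. Neither gene was called in oligodendrocytes with OTV against saline. The 7 myeloid markers, whose nuclei lead for ITGA5, summed to 24.8 to 33.5 CPM in oligodendrocytes of OTV animals and 18.3 to 26.4 in ASO, and their part was not tested.

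A list of 68 measured genes that make, cut, bind or sense the matrix was read beside the members. With OTV against saline, 7 rose and 4 fell of the 64 tested for oligodendrocytes. For OPCs these numbers were 13 and 6 of 58, for the myeloid class 10 and 0 of 44, and for astrocytes 5 and 2 of 54. The list's shares called were 17.2%, 32.8%, 22.7% and 13% in that order, against 19.2%, 22.1%, 12% and 15.4% of all genes, so they were above in some types and below in others. With ASO against saline the list had 1 call, in OPCs. SERPINH1, the collagen-specific chaperone, fell in oligodendrocytes from 6.89 CPM ± 0.443 (SD, n = 3) to 2.16 ± 0.441, a log2 change of -1.61 (SE 0.21, adjusted p = 0.00125, edgeR), and also fell in OPCs (-1.95) and astrocytes (-0.98). The last 2 calls were lost with the region term (-1.38, adjusted p = 0.169, and -0.87, adjusted p = 0.0991) and without most single animals (7 of 9 and 8 of 9, adjusted p up to 0.125). BMP1, the protease that trims collagen ends, rose in oligodendrocytes (0.80) and OPCs (1.10, adjusted p = 0.000465). TNS2, a tensin that links integrins to actin, rose in all 4 types, with log2 changes of 1.29 (oligodendrocytes), 1.01 (OPCs), 1.56 (myeloid) and 1.45 (astrocytes). Its myeloid call was lost without Saline 1 or 2, ASO 1 or 2, or OTV 3 (1.00 to 1.55, adjusted p up to 0.135), and with the 6 compared animals alone (1.57, adjusted p = 0.0734). With the animals of negative region score the TNS2 call was lost in OPCs (1.03, adjusted p = 0.0516), in the myeloid class (1.84, adjusted p = 0.117) and in astrocytes (1.44, adjusted p = 0.0649). VCL, the adhesion protein vinculin, fell in oligodendrocytes (-1.54) and OPCs (-0.52, but -0.35 with adjusted p = 0.114 with the region term). Its OPC call was lost also without Saline 1, OTV 1 or OTV 2 (-0.52 to -0.48, adjusted p of 0.0607 to 0.0771) and with the animals of negative region score (-0.42, adjusted p = 0.212).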

How the data were processed

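Single-nucleus RNA libraries of 9 animals were deposited by the authors as 1 matrix of raw UMI counts, with a table of nuclei giving animal, cell type, cluster, total count and a doublet score. Per the file headers the deposited doublet score is a fraction between 0 and 1, every nucleus is called a singlet, and the highest score is 0.865; the smallest nucleus held 1018 UMIs. The submitters' processing notes name Cell Ranger 6.1.2, Seurat 4 and the build GRCh38.p13, while many features carry cynomolgus Ensembl identifiers, so the build behind the counts is unsure and no coordinate is printed. Gene neighbours come from the RefSeq table of assembly T2T-MFA8v1.1.

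Counts were summed per animal and type and tested with edgeR 4.0.16 in R 4.3.3 (TMM, filterByExpr, robust quasi-likelihood, all 9 animals), with Benjamini-Hochberg adjustment over all genes of a fit. The interaction fit kept the animal as a block. Alternatives were DESeq2 1.42.0 size factors and Wald test, no filter, the 6 compared animals, a region score term (mean log2(CPM + 1) of 6 telencephalon minus 8 diencephalon genes), 1 cluster per type and each animal left out. A fit of the animals with a region score under 0, and the division of cluster 15, were added after seeing the data. The test was checked on simulated counts.

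Members were named as carriers (highest type at least 2 times the next, up to 5 a type by UMIs), by ratio in clusters 15 and 16 (up to 8, at least 20 UMIs), and by call (up to 5 each way a fit, by adjusted p). LAMA4 in oligodendrocytes, ITGB8, ITGA2 and ITGA7, ITGAX and ITGAM in myeloid nuclei, and the genes of the matrix list named were chosen after their values were seen. The members and lists were chosen with earlier results of these data known. The p values set group differences against a spread between these animals that the fits moderate across genes.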

Additional observations from a re-analysis of the deposited data

Results flagged for a closer look

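The effect of treatment differed between the 4 tested cell types for 21 combinations of member and contrast, by edgeR's test of the interaction adjusted over 16830 genes; 65 members were tested. With ASO against saline these were COL9A1 (adjusted p = 0.00861; log2 change -1.89 in oligodendrocytes, -0.34 in OPCs, 0.02 in astrocytes) and COL20A1 (adjusted p = 0.0144; -2.29 in oligodendrocytes, 0.57 in OPCs). Leaving out 1 animal, COL9A1 lost the call in 2 of 9 fits and COL20A1 in 3. Of all genes, 161 were called there.

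With OTV against saline, 594 genes and 4 members were called. They were COL9A2 (adjusted p = 0.00971), COL19A1 (adjusted p = 0.0103; -3.63 in oligodendrocytes, -2.87 in OPCs, 0.15 in astrocytes), COL25A1 (adjusted p = 0.0224; -2.13 in astrocytes, 0.34 in oligodendrocytes) and ITGBL1 (adjusted p = 0.0497; -2.54 in OPCs, 0.05 in oligodendrocytes). ITGBL1 kept the call in 0 of 9 fits that left out 1 animal, COL25A1 in 4, and COL9A2 and COL19A1 in 7 each.

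With OTV against ASO, 1749 genes and 15 members were called. COL25A1 (adjusted p = 9.29e-05; -2.90 in astrocytes, 1.31 in oligodendrocytes) and ITGA2 (adjusted p = 0.000703; -0.47 in oligodendrocytes, 1.70 in myeloid nuclei) kept the call in all 9 fits with 1 animal left out, and the other 13 lost it in 2 to 7 of them. The test does not say which type differs. Other members called were COL24A1 (adjusted p = 0.00765), LAMA3 (adjusted p = 0.00908), COL4A6 (adjusted p = 0.0141) and LAMA1 (adjusted p = 0.0164), with log2 differences of -1.40, -2.33, -2.59 and -0.22 in astrocytes and 1.26, -0.05, 1.04 and 1.29 in oligodendrocytes. Myeloid nuclei had the highest difference for COL4A5 (adjusted p = 0.0132), ITGB8 (adjusted p = 0.0133), COL9A1 (adjusted p = 0.0213), LAMB2 (adjusted p = 0.0365), COL9A2 (adjusted p = 0.0385) and ITGB2 (adjusted p = 0.0419). The other 3 were COL19A1 (adjusted p = 0.0162), COL12A1 (adjusted p = 0.0258) and ITGBL1 (adjusted p = 0.0473).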

How the results depend on the processing

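No named call reversed in any setting. Of 76 named calls, 30 held in every setting (7 of 32 with OTV against saline), 29 were lost with only the animals of region score under 0, 14 with the region term, 8 with the 6 compared animals, 8 in 1 cluster alone, 6 without the filter, 1 with DESeq2's Wald test and 0 with its size factors; 39 were lost without at least 1 animal. DESeq2's Wald test called 2 members in all nuclei, 4 for oligodendrocytes, 3 for OPCs and 2 for the myeloid class with ASO against saline (edgeR 0, 1, 0 and 0), and in all nuclei 8 with OTV against saline (edgeR 5) and 20 with OTV against ASO (edgeR 9). Of all genes it called 1.68%, 3.45%, 1.44% and 1.67%, and then 24.4% and 26.1%. Without the filter, ASO against saline gave 2 in oligodendrocytes and 2 in OPCs; with the region term it gave 0 and 2. In cluster 2 alone, OTV against saline gave 5 in oligodendrocytes. With only the animals of region score under 0 (1 saline, 2 ASO and 3 OTV animals, chosen after seeing the data), OTV against saline gave 2 in all nuclei, 2 in oligodendrocytes, 5 in myeloid nuclei and 2 in astrocytes, ASO against saline 0 in oligodendrocytes and 1 in OPCs, and OTV against ASO 7 in OPCs. The causes were not tested. In this section shares of all genes are given for DESeq2's Wald test alone, so the other counts of members have no background. Leaving out 1 animal, the calls with ASO against saline ran from 0 to 0 in all nuclei, 0 to 2 in oligodendrocytes, 0 to 1 in OPCs and 0 to 0 in myeloid nuclei and astrocytes. With OTV against saline they ran from 2 to 5, 5 to 10, 8 to 12, 1 to 5 and 2 to 7 in the same order, and with OTV against ASO from 4 to 14, 13 to 23, 6 to 13, 6 to 11 and 4 to 11. Interaction calls ran from 0 to 3, 1 to 7 and 5 to 13. The highest type was the same for 63 of 74 members in saline animals alone, for 67 by thinned share and for 66 to 72 without 1 animal, a setting added after seeing the data. The median of all genes in all nuclei, OTV against saline, was -0.06 with TMM and -0.12 with plain CPM. No paired analysis was possible because the labels give no number that links animals of different groups. Depth limits members at a few UMIs per animal, and OTV replicate 3 was the shallowest library per nucleus.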
